A study of Mus musculus with 6 samples.

Results

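The lymphocyte marker genes described here are 30 genes that mark T, B, plasma and natural killer (NK) cells, chosen by symbol and found by their Ensembl identifiers among the 37991 genes of the count tables. All 30 were present. RNA was sequenced from liver and liver tumour of mice fed a high-fat diet (HFD) for 27 weeks and sacrificed at 35 weeks of age. Tumours and KAP1-deleted livers came from TgAlbCreKap1lox mice, in which Cre recombinase, driven by the albumin promoter of hepatocytes, inactivates Kap1 (Trim28). Control livers came from TgAlbCre mice, so that every mouse carried the Cre transgene and received the diet, and the lymphocytes themselves are not the cells that the albumin promoter targets. Each group held 2 libraries. By the mouse codes in the labels, tumour 1 and KAP1-deleted liver 1 came from 1 mouse and tumour 2 and KAP1-deleted liver 2 from another, which makes 4 mice in all. The comparisons share libraries: the tumours enter 2 of them, as do the KAP1-deleted livers and the control livers.

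Lymphocytes reach the liver through the sinusoids, where resident NK and T cells lie beside Kupffer cells, the macrophages of the liver. T cells recognise peptides through a receptor that signals through the CD3 chains and the kinase LCK, with CD4 or CD8 as co-receptor, and CD8 T cells and NK cells kill target cells with perforin and granzymes. B cells carry membrane immunoglobulin with CD79A and CD79B, and plasma cells secrete immunoglobulin, of which the J chain joins the polymeric forms.

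Genes held between 39723997 and 62178752 counts per library, and expression is given as CPM, in which each library total was adjusted by a trimmed-mean (TMM) factor. Trim28 stood at 5.22 and 4.59 CPM in tumours, 5.06 and 6.02 CPM in KAP1-deleted livers, against 32.5 and 35.9 CPM in control livers. Most lymphocyte genes were low in this whole tissue: 16 of the 30 had at least 1 library under 10 counts, and 11 had under 100 counts in all libraries together, so that counting error is part of the spread of these genes. The pan-leukocyte gene Ptprc (CD45) had 1213 to 3240 counts per library, and Ighm, Igkc and Jchain reached 2284, 1091 and 1527 counts in KAP1-deleted liver 2. Reads counted to no gene made up 36.7% and 33.1% of counted reads in tumours, 24.8% and 20.9% in KAP1-deleted livers, against 27.6% and 20.9% in control livers. Both tumours were above the livers in this share, and its part in the tumour comparisons was not tested. The T cell, NK cell and B cell markers were detected in every group. In bulk tissue, more or fewer cells of a type and more or less RNA per cell cannot be told apart.

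The promoters of the cytotoxic granule and NK receptor genes are shown because Gzmb is 1 of the 2 genes called below and most of the others had higher levels in tumour. Each sequence is the 150 bases before the transcription start in RefSeq, build GRCm38.p6, written 5′ to 3′ on the strand of the gene, and capitals mark the RUNX core TGTGGT or its reverse complement ACCACA. For Gzmb this start lies upstream of the gene position given below, which comes from another annotation, so the window does not adjoin that position.
Gzma, chr13:113100982-113101131, minus strand: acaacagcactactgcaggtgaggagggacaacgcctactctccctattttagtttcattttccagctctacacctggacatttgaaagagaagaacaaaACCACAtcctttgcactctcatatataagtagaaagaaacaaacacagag
Gzmb, chr14:56262335-56262484, minus strand: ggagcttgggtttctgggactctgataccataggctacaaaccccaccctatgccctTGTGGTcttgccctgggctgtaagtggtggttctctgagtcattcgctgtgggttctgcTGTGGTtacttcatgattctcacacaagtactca
Prf1, chr10:61297686-61297835, plus strand: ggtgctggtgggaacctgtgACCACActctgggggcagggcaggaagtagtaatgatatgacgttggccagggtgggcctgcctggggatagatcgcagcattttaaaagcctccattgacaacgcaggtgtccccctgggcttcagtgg
Nkg7, chr7:43436988-43437137, plus strand: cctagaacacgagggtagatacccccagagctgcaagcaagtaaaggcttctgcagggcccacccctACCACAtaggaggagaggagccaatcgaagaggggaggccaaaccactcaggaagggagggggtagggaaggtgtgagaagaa
Ncr1, chr7:4337574-4337723, plus strand: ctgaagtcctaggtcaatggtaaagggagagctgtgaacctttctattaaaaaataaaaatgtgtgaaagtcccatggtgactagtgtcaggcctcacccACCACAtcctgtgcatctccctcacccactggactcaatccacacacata
Klrb1c, chr6:128788642-128788791, minus strand: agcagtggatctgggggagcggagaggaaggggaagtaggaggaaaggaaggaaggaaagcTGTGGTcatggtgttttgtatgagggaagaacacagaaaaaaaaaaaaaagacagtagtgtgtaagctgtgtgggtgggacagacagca
A RUNX core lay within 250 bases before the start in all 6 of these genes. RUNX proteins are transcription factors of the lymphocyte lineages. Of the 30 genes, 21 matched a promoter in the RefSeq table, and the core was present in 9 of the 21, against 14.0% of 32851 promoters in the table. The other genes with it were Cxcr3, Cxcr6 and Lck. The ETS motif AGGAAG, or its reverse complement CTTCCT, was present in 14 of the 21 and in 29.5% of all promoters, and the octamer ATGCAAAT or ATTTGCAT in 0 of the 21 and in 1.6%. A gene can have more than 1 start in the table (25 promoters for the 21 genes), the motifs were chosen with the expression values known, and a match is a string of letters and not a measured binding site. Cd2, Thy1, Cd4, Cd8b1, Ccl5, Ms4a1, Cd79b, Ighm and Igkc had no entry.

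**Figure D1:**
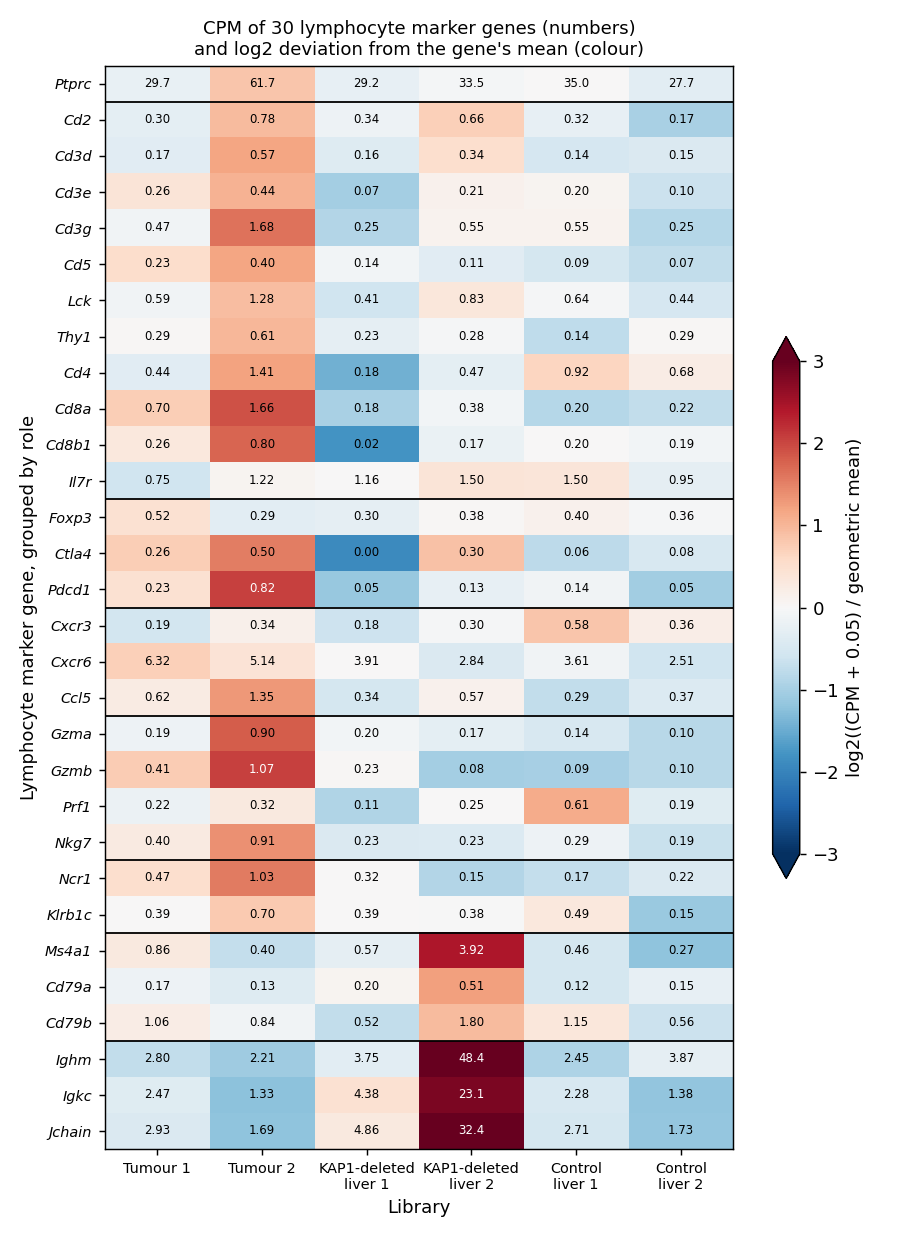
Level of each of the 30 genes (rows, grouped by role) in each of the 6 libraries (columns). Numbers are CPM, and colour is the log2 deviation of CPM + 0.05 from the gene's geometric mean, with the scale ending at 3 in either direction. Tumour 2 is high for most T cell, cytotoxic and NK genes, and KAP1-deleted liver 2 is high for the 6 B cell and immunoglobulin genes.

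The 30 genes did not share 1 pattern. The highest library was tumour 2 for 19 genes, KAP1-deleted liver 2 for 7, tumour 1 for 2 and control liver 1 for 2. The 19 were Ptprc and T cell, checkpoint, chemokine, granule and NK genes, while the 7 were the 6 B cell and immunoglobulin genes and Il7r. The remaining 4 were Foxp3 and Cxcr6 in tumour 1 and Cxcr3 and Prf1 in control liver 1.

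In tumour against control liver, 2 of the 30 genes rose and 0 fell by edgeR's quasi-likelihood test, at a Benjamini-Hochberg adjusted p under 0.05. Among all 17558 genes tested, 6.15% rose and 7.76% fell in that comparison. At an unadjusted p under 0.05, 9 were higher and 0 lower, against 12.9% and 17% of all genes. DESeq2 called 3 higher (Cd8a, Cxcr6 and Gzmb) and 0 lower, against 8.3% and 9.84% of all genes, and limma-voom called 0 in either direction, against 6.08% and 7.76%. Both tumours lay above both control livers for 14 of the 30 genes, against 26.5% of all genes, and below them for 1, against 29.9%. The median log2 fold change was 0.94 over the 30 genes and -0.02 over all genes tested.

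In tumour against KAP1-deleted liver, 0 of the 30 genes were called higher and 0 lower by edgeR, while 4.8% of all genes rose and 6.64% fell. At an unadjusted p under 0.05, 8 were higher and 3 lower, against 11.9% and 17.2% of all genes. DESeq2 called Cd8a and Gzmb higher and Ighm, Igkc and Jchain lower, against 7.14% and 9.03% of all genes, and limma-voom called 0 in either direction, against 4.74% and 7.1%. With the mouse as a block, edgeR called 3 genes higher, which were Cd8a (adjusted p = 0.0165), Cd8b1 (adjusted p = 0.0256) and Pdcd1 (adjusted p = 0.0362), and 0 lower, against 4.96% and 6.53% of all genes. The groups did not overlap for 12 genes higher in tumour and 4 lower, against 28.7% and 34.8% of all genes. The median log2 fold change was 0.67 over the 30 genes and -0.03 over all genes.

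In KAP1-deleted liver against control liver, 0 of the 30 genes were called in either direction by edgeR, DESeq2 or limma-voom, and edgeR called 0.239% of all genes higher and 0.0968% lower. Among all genes, 0.866% were higher and 0.444% lower by DESeq2, and 0.148% and 0.0683% by limma-voom. At an unadjusted p under 0.05, Ms4a1, Igkc and Jchain were higher and 0 genes were lower, against 3.27% and 2.17% of all genes. The groups did not overlap for 8 genes higher in KAP1-deleted liver and 3 lower, against 16.7% and 14.6% of all genes. The median log2 fold change was 0.28 over the 30 genes and 0.003 over all genes.

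**Figure D2:**
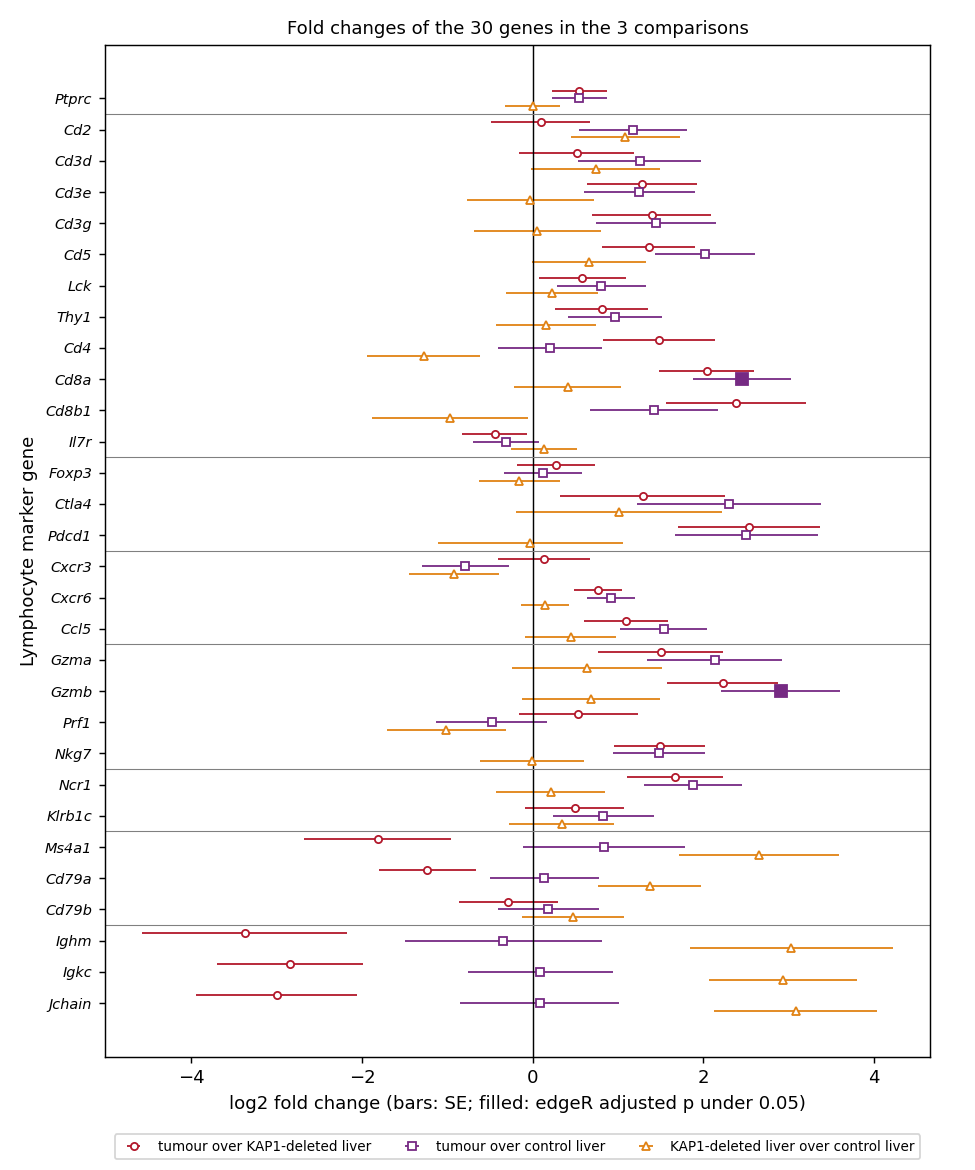
Fitted log2 fold change (horizontal axis) of each of the 30 genes (vertical axis, grouped by role) in tumour over KAP1-deleted liver (circles), tumour over control liver (squares) and KAP1-deleted liver over control liver (triangles). Bars are SE, and filled markers have an edgeR adjusted p under 0.05, which are the squares of Cd8a and Gzmb.

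Ptprc encodes CD45, the phosphatase on leukocytes of the blood lineages. It had 29.7 and 61.7 CPM in tumours, 29.2 and 33.5 CPM in KAP1-deleted livers, against 35.0 and 27.7 CPM in control livers. Tumour 2 stood above the other libraries and tumour 1 among them, so that the groups overlapped, and no comparison passed the test. Its log2 fold change was 0.54 ± 0.32 (SE) in tumour over KAP1-deleted liver (edgeR adjusted p = 0.305) and 0.54 ± 0.32 in tumour over control liver (edgeR adjusted p = 0.302).

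Of the 11 T cell genes, Cd8a rose in tumour against control liver, and the other 10 did not pass in that comparison. Cd8a (ENSMUSG00000053977), the alpha chain of the CD8 co-receptor of cytotoxic T cells, had 51 and 87 counts in tumours, 8 and 18 in KAP1-deleted livers, against 7 and 13 in control livers. These were 0.704 and 1.66 CPM in tumours, 0.182 and 0.381 CPM in KAP1-deleted livers, against 0.202 and 0.221 CPM in control livers. Both tumours lay above all 4 livers. The log2 fold change of Cd8a was 2.45 ± 0.58 over control liver (edgeR adjusted p = 0.0299) and 2.04 ± 0.55 over KAP1-deleted liver (edgeR adjusted p = 0.0528). The call against control liver was lost without tumour 2 (adjusted p = 0.138), without control liver 1 (adjusted p = 0.0738) and without control liver 2 (adjusted p = 0.109), and limma-voom gave 0.0519.

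Cd8b1, the beta chain of the same co-receptor, had 19 and 42 counts in tumours, 1 and 8 in KAP1-deleted livers, against 7 and 11 in control livers. Both tumours were again above all 4 livers in CPM. The log2 fold change was 2.38 ± 0.82 over KAP1-deleted liver (edgeR adjusted p = 0.102) and 1.42 ± 0.75 over control liver (edgeR adjusted p = 0.249). In the GENCODE annotation of GRCm38, which gives all gene positions here, Cd8a lies at chr6:71373427-71379173 and Cd8b1 at chr6:71322788-71337494.

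Cd4, the co-receptor of helper T cells, which some dendritic cells carry as well, had 0.442 and 1.41 CPM in tumours, 0.182 and 0.466 CPM in KAP1-deleted livers, against 0.924 and 0.679 CPM in control livers. Both KAP1-deleted livers were below both control livers, and the tumours lay on either side of the control livers. The log2 fold change was 1.48 ± 0.65 in tumour over KAP1-deleted liver (edgeR adjusted p = 0.179), and the tumour held 2.43 times the level of its liver in mouse 1 and 3.02 times in mouse 2. With every gene of at least 1 count kept, the edgeR adjusted p was 0.0156, and with library totals 0.0416. The first of these settings also called immunoglobulin genes that were high in 1 KAP1-deleted liver only, so its adjusted p is not read as stronger evidence. The log2 fold change was 0.20 ± 0.61 in tumour over control liver (edgeR adjusted p = 0.859) and -1.28 ± 0.66 in KAP1-deleted liver over control liver (edgeR adjusted p = 1).

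The CD3 chain genes Cd3d, Cd3e and Cd3g transmit the signal of the T cell receptor. Cd3g had 0.469 and 1.68 CPM in tumours, 0.250 and 0.551 CPM in KAP1-deleted livers, against 0.548 and 0.255 CPM in control livers. Cd3e had 0.262 and 0.438 CPM in tumours, 0.0681 and 0.212 CPM in KAP1-deleted livers, against 0.202 and 0.102 CPM in control livers. For Cd3g, tumour 1 lay within the range of the livers and tumour 2 above it, and for Cd3e both tumours lay above the livers. None of the 3 CD3 genes passed a test, and their log2 fold changes in tumour over control liver were 1.25 ± 0.72, 1.25 ± 0.65 and 1.45 ± 0.70 for Cd3d, Cd3e and Cd3g.

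The remaining T cell genes were Cd2 and Thy1, which are surface glycoproteins, Cd5, an inhibitor of receptor signalling, Lck, the kinase that starts it, and Il7r, the receptor for interleukin-7. Of these, Cd5 had the highest log2 fold change in tumour over control liver, 2.02 ± 0.59 with an edgeR adjusted p of 0.0582. It had 17 and 21 counts in tumours, 6 and 5 in KAP1-deleted livers, against 3 and 4 in control livers, without overlap of the tumours with the livers. Cd2 had 0.304 and 0.781 CPM in tumours, 0.341 and 0.657 CPM in KAP1-deleted livers, against 0.318 and 0.170 CPM in control livers, and Lck had 0.594 and 1.28 CPM in tumours, 0.409 and 0.826 CPM in KAP1-deleted livers, against 0.635 and 0.441 CPM in control livers. For both genes replicate 2 was the higher library of the tumours and of the KAP1-deleted livers, and the groups overlapped except that both KAP1-deleted livers exceeded the control livers for Cd2. The log2 fold changes in tumour over control liver were 1.18 ± 0.63 for Cd2, 0.80 ± 0.52 for Lck and 0.97 ± 0.55 for Thy1, with edgeR adjusted p of 0.256, 0.346 and 0.284. Il7r was the 1 T cell gene whose log2 fold change was below 0 in tumour over both livers, at -0.45 ± 0.39 over KAP1-deleted liver and -0.31 ± 0.39 over control liver.

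Summed over the 11 T cell genes, tumours held 4.47 and 10.8 CPM, KAP1-deleted livers 3.13 and 5.49 CPM, and control livers 4.91 and 3.51 CPM. Tumour 1 was within the range of the livers and tumour 2 above it. Set against Ptprc in the same library, this sum came to 15.1 and 17.6 per 100 CPM of Ptprc in tumours, 10.7 and 16.4 in KAP1-deleted livers, against 14.0 and 12.7 in control livers.

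Foxp3, Ctla4 and Pdcd1 mark regulatory T cells and inhibitory checkpoints. Pdcd1, which encodes the receptor PD-1 found on activated and exhausted T cells, had 17 and 43 counts in tumours, 2 and 6 in KAP1-deleted livers, against 5 and 3 in control livers. In each tumour the level exceeded that of every liver. The log2 fold change was 2.53 ± 0.83 over KAP1-deleted liver (edgeR adjusted p = 0.0891) and 2.50 ± 0.84 over control liver (edgeR adjusted p = 0.0873).

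Ctla4, which encodes an inhibitory receptor that competes with CD28, had 19 and 26 counts in tumours, 0 and 14 in KAP1-deleted livers, against 2 and 5 in control livers. Both tumours lay above the control livers, and KAP1-deleted liver 2 lay between tumour 1 and tumour 2 in CPM. The 0 counts in KAP1-deleted liver 1 allow a level of up to 0.0681 CPM, from 3 counts. In tumour over control liver the log2 fold change was 2.30 ± 1.08 (edgeR adjusted p = 0.199).

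Foxp3, the transcription factor of regulatory T cells, had 0.525 and 0.286 CPM in tumours, 0.295 and 0.381 CPM in KAP1-deleted livers, against 0.404 and 0.357 CPM in control livers, with tumour 1 highest and tumour 2 lowest. Its log2 fold change was 0.12 ± 0.45 in tumour over control liver (edgeR adjusted p = 0.891). The Foxp3 counts are uncertain, because Flicr covers 18.6% of its exon bases on the same strand in the annotation and 73.6% of its 31-base words are found in no other gene.

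Cxcr3, Cxcr6 and Ccl5 belong to lymphocyte homing. Cxcr6, a chemokine receptor of liver-resident T and NK cells, had 458 and 270 counts in tumours, 172 and 134 in KAP1-deleted livers, against 125 and 148 in control livers. Both tumours lay above the livers in CPM, with 6.32 and 5.14 CPM in tumours, 3.91 and 2.84 CPM in KAP1-deleted livers, against 3.61 and 2.51 CPM in control livers, and unlike most genes of the set it was higher in tumour 1. The log2 fold change was 0.77 ± 0.28 over KAP1-deleted liver (edgeR adjusted p = 0.115) and 0.91 ± 0.28 over control liver (edgeR adjusted p = 0.0684). Cxcr6 lies on the opposite strand within Fyco1, with no shared exon bases, and Fyco1 had 8796 and 3997 counts in tumours, 2489 and 2720 in KAP1-deleted livers, against 2009 and 3230 in control livers. The part of Fyco1 transcripts in the Cxcr6 counts was not tested.

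Ccl5, a chemokine made by T and NK cells, had 0.621 and 1.35 CPM in tumours, 0.341 and 0.572 CPM in KAP1-deleted livers, against 0.289 and 0.373 CPM in control livers. Both tumours lay above the livers, and the log2 fold change over control liver was 1.54 ± 0.51 (edgeR adjusted p = 0.0854). Cxcr3, the receptor for Cxcl9, Cxcl10 and Cxcl11, had 0.193 and 0.343 CPM in tumours, 0.182 and 0.297 CPM in KAP1-deleted livers, against 0.577 and 0.357 CPM in control livers. It was the 1 gene of the 30 for which both tumours lay below both control livers, with a log2 fold change of -0.79 ± 0.51 (edgeR adjusted p = 0.343).

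The 4 cytotoxic granule genes and 2 NK receptor genes included the second gene that passed. Gzmb (ENSMUSG00000015437, chr14:56258838-56262260), granzyme B, a protease that cytotoxic cells deliver into their targets, had 30 and 56 counts in tumours, 10 and 4 in KAP1-deleted livers, against 3 and 6 in control livers. These were 0.414 and 1.07 CPM in tumours, 0.227 and 0.0847 CPM in KAP1-deleted livers, against 0.0866 and 0.102 CPM in control livers. The tumours exceeded all the livers. Gzmb rose in tumour over control liver with a log2 fold change of 2.90 ± 0.70 (edgeR adjusted p = 0.0318), and its log2 fold change over KAP1-deleted liver was 2.22 ± 0.65 (edgeR adjusted p = 0.0648). As for Cd8a, the call was lost without tumour 2 (adjusted p = 0.15), without control liver 1 (adjusted p = 0.0791) and without control liver 2 (adjusted p = 0.118), and limma-voom gave 0.0566.

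Gzma, granzyme A, had 14 and 47 counts in tumours, 9 and 8 in KAP1-deleted livers, against 5 and 6 in control livers, so that tumour 1 lay among the livers in CPM and tumour 2 above them. Nkg7, a granule membrane protein, had 0.400 and 0.914 CPM in tumours, 0.227 and 0.233 CPM in KAP1-deleted livers, against 0.289 and 0.187 CPM in control livers. Prf1, the pore-forming perforin that lets granzymes enter the target, had 0.221 and 0.324 CPM in tumours, 0.114 and 0.254 CPM in KAP1-deleted livers, against 0.606 and 0.187 CPM in control livers. Nkg7 had no overlap between tumours and livers, whereas control liver 1 was the highest library for Prf1. The log2 fold changes in tumour over control liver were 2.13 ± 0.79, 1.48 ± 0.54 and -0.48 ± 0.65 for Gzma, Nkg7 and Prf1, with edgeR adjusted p of 0.114, 0.109 and 0.669.

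Ncr1 encodes NKp46, an activating receptor of NK cells and other innate lymphoid cells. It had 34 and 54 counts in tumours, 14 and 7 in KAP1-deleted livers, against 6 and 13 in control livers, with both tumours above the livers in CPM. Its log2 fold change was 1.67 ± 0.56 over KAP1-deleted liver (edgeR adjusted p = 0.0966) and 1.88 ± 0.57 over control liver (edgeR adjusted p = 0.0679). Klrb1c, the NK1.1 antigen, had a log2 fold change of 0.83 ± 0.60 over control liver (edgeR adjusted p = 0.396), and 78.8% of its 31-base words are found in no other gene.

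The sum of the 4 granule genes was 1.23 and 3.20 CPM in tumours, 0.772 and 0.742 CPM in KAP1-deleted livers, against 1.13 and 0.577 CPM in control livers. The sum of the NK receptor genes was 0.856 and 1.73 CPM in tumours, 0.704 and 0.530 CPM in KAP1-deleted livers, against 0.664 and 0.373 CPM in control livers. In both sums tumour 2 lay above the livers and tumour 1 close above the highest liver. Within a mouse, the tumour held 1.82 times the liver level of Gzmb in mouse 1 and 12.6 times in mouse 2, and 1.48 and 6.93 times that of Ncr1.

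**Figure D3:**
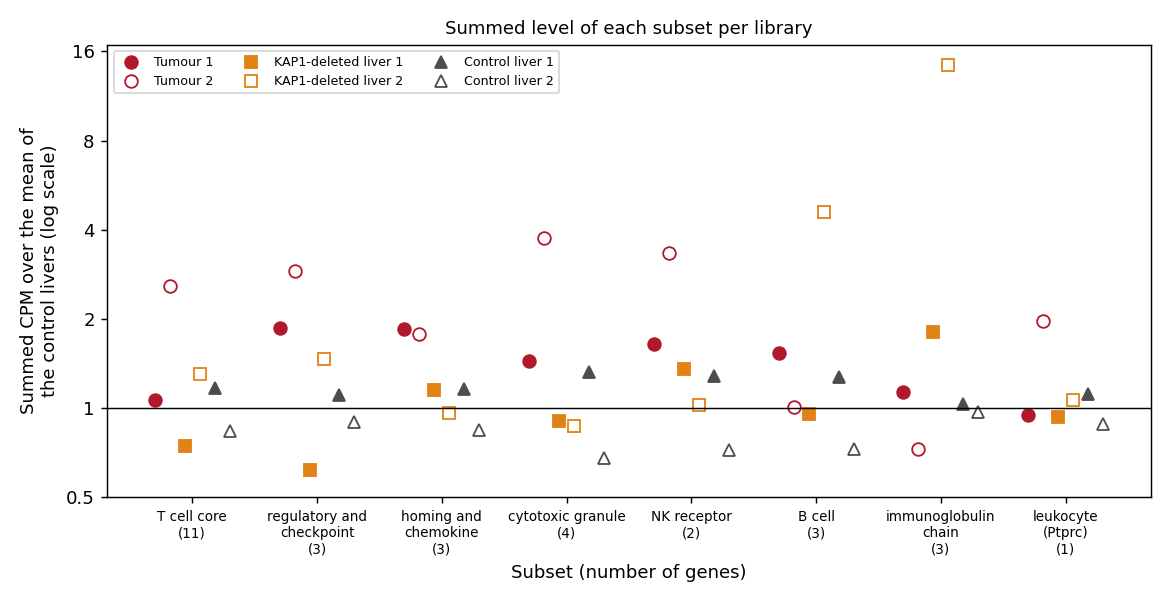
Summed CPM of each group of genes in each library, divided by the mean of the 2 control livers, on a log scale. Tumours are circles, KAP1-deleted livers squares and control livers triangles, filled for replicate 1 and open for replicate 2. Tumour 2 is at 2.57 for the T cell genes and 3.76 for the granule genes, and KAP1-deleted liver 2 is at 4.59 for the B cell genes and 14.4 for the immunoglobulin chains.

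The B cell and immunoglobulin genes were high in KAP1-deleted liver 2 and not in the tumour of the same mouse. Ighm (ENSMUSG00000076617, chr12:113418558-113422730), the constant region of the mu heavy chain, had 203 and 116 counts in tumours, 165 and 2284 in KAP1-deleted livers, against 85 and 228 in control livers. Igkc (ENSMUSG00000076609, chr6:70726435-70726966), the constant region of the kappa light chain, had 179 and 70 counts in tumours, 193 and 1091 in KAP1-deleted livers, against 79 and 81 in control livers. Jchain (ENSMUSG00000067149, chr5:88519809-88527891), the joining chain of polymeric IgM and IgA, had 212 and 89 counts in tumours, 214 and 1527 in KAP1-deleted livers, against 94 and 102 in control livers. For all 3 genes KAP1-deleted liver 2 stood far above the other 5 libraries, while KAP1-deleted liver 1 held 3.75, 4.38 and 4.86 CPM.

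In CPM, KAP1-deleted liver 2 held 12.9 times the level of KAP1-deleted liver 1 for Ighm, 5.27 times for Igkc and 6.66 times for Jchain. In mouse 2 the tumour held 0.0456, 0.0577 and 0.0524 of the level of its liver for the same 3 genes, and in mouse 1 0.748, 0.564 and 0.602. The 3 genes did not pass the test in KAP1-deleted liver over control liver, with log2 fold changes of 3.03 ± 1.19, 2.93 ± 0.87 and 3.08 ± 0.96 and edgeR adjusted p of 0.927, 0.634 and 0.691. In tumour over KAP1-deleted liver their log2 fold changes were -3.37 ± 1.20, -2.84 ± 0.85 and -3.00 ± 0.94, with edgeR adjusted p of 0.147, 0.0987 and 0.111. Tumour and control liver were close, with log2 fold changes of -0.34 ± 1.15, 0.09 ± 0.85 and 0.08 ± 0.93 and edgeR adjusted p from 0.877 to 0.966.

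These calls differed with 1 library left out. With KAP1-deleted liver 1 left out, Ms4a1, Ighm, Igkc and Jchain were called higher in the remaining KAP1-deleted liver than in control liver, with adjusted p of 0.0215, 0.000495, 0.00357 and 0.00159, and lower in tumour than in that liver. Of all genes, 0.346% were called higher and 2.68% lower in these comparisons. The remaining KAP1-deleted liver then stands alone in its group and is assumed to vary like the others. With KAP1-deleted liver 2 left out, the log2 fold changes of Ms4a1, Ighm, Igkc and Jchain over control liver were 0.66, 0.24, 1.27 and 1.14. In tumour over the remaining KAP1-deleted liver they were 0.15, -0.59, -1.21 and -1.08.

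Ms4a1 (CD20), a membrane protein of B cells, had 62 and 21 counts in tumours, 25 and 185 in KAP1-deleted livers, against 16 and 16 in control livers. Cd79b had 77 and 44 counts in tumours, 23 and 85 in KAP1-deleted livers, against 40 and 33 in control livers. Cd79a had 12 and 7 counts in tumours, 9 and 24 in KAP1-deleted livers, against 4 and 9 in control livers. KAP1-deleted liver 2 was again the highest library for each. The sum of the 3 B cell genes was 2.09 and 1.37 CPM in tumours, 1.29 and 6.23 CPM in KAP1-deleted livers, against 1.73 and 0.985 CPM in control livers. The sum of the 3 immunoglobulin chain genes was 8.20 and 5.24 CPM in tumours, 13.0 and 103.9 CPM in KAP1-deleted livers, against 7.45 and 6.98 CPM in control livers.

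Further genes of the B and plasma cell list were mixed. Of the 20 that were tested, 12 had their highest level in KAP1-deleted liver 2, against 11.3% of all genes tested, and 18 were higher there than in KAP1-deleted liver 1, against 49.0% of all genes. The log2 ratio of KAP1-deleted liver 2 over KAP1-deleted liver 1 (CPM + 0.1) had a median of 0.39 over the 20 genes and -0.006 over all genes. It ran from -0.19 for Cr2, a complement receptor of B cells, to 4.66, and was -0.04 for Cd72, an inhibitory receptor of B cells; Cr2 and Cd72 were named after their values were seen. Iglc2, a lambda light chain constant region, had 16 and 5 counts in tumours, 13 and 227 in KAP1-deleted livers, against 7 and 9 in control livers. Irf4, a transcription factor of plasma cells that T cells also use, had 29 and 34 counts in tumours, 31 and 42 in KAP1-deleted livers, against 12 and 22 in control livers. Pou2af1, a coactivator of immunoglobulin genes, had 17 and 5 counts in tumours, 10 and 45 in KAP1-deleted livers, against 7 and 4 in control livers. The variable segments of the kappa locus, which were looked at after these values were seen, had 60 and 29 counts in tumours, 42 and 267 in KAP1-deleted livers, against 37 and 42 in control livers. In KAP1-deleted liver 2 these counts lay in 41 of the 59 kappa segments in the tables, and Igkv5-39 held 24.7% of them (95% exact binomial interval 19.7% to 30.3%, counting error only). In the other libraries 17 to 25 kappa segments were detected, among 29 to 60 counts. The number detected depends on the number of counts, so it does not compare the breadth of the segments. Igkv5-39 was also the top segment in tumour 2 (13.8%), KAP1-deleted liver 1 (16.7%) and control liver 2 (16.7%), with overlapping intervals. Tumour 1 and control liver 1 had another top segment. At the lambda locus, Iglv1 held 225 of the 338 variable segment counts in KAP1-deleted liver 2. That was 66.6% (95% exact binomial interval 61.3% to 71.6%, counting error only). Only 3 lambda segments are in the tables, so a large top share is expected in any library. In the other libraries the top segment, Iglv1 or Iglv3, held 45.5% to 62.1% of 15 to 29 counts.

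KAP1-deleted liver 2 also differed in the sums of other marker lists. The summed CPM of 7 erythroid genes was 227.4 and 330.2 in tumours, 427.5 and 987.6 in KAP1-deleted livers, against 724.2 and 483.2 in control livers. The summed CPM of 9 exocrine pancreas genes was 9.83 and 38.6 in tumours, 5.16 and 35.2 in KAP1-deleted livers, against 5.74 and 8.39 in control livers. The summed CPM of 5 lymphoid stroma genes was 0.387 and 0.514 in tumours, 0.363 and 1.33 in KAP1-deleted livers, against 0.375 and 0.645 in control livers, highest in KAP1-deleted liver 2, and 1 of the 5 was at 0 in all libraries. Only 2 of them passed the filter for testing. Lymphocytes express some of these genes too, so this sum does not separate stroma from lymphocytes. The exocrine pancreas sum was high in both samples of mouse 2, the immunoglobulin sum in its liver only, and the part of blood, lymphoid or other tissue in the immunoglobulin counts was not tested.

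**Figure D4:**
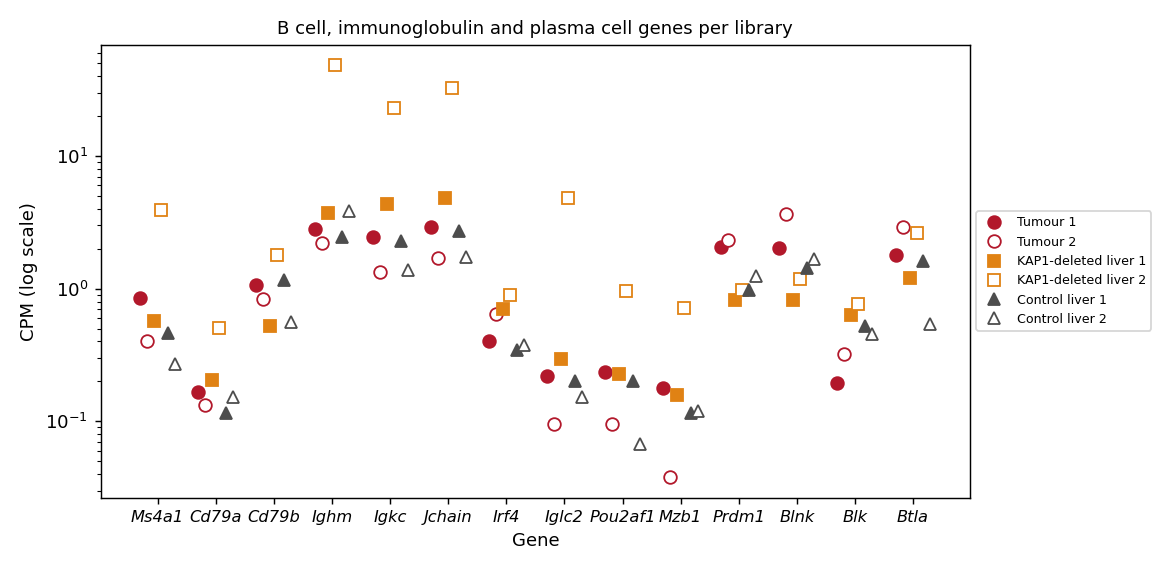
CPM of the 6 B cell and immunoglobulin genes and of 8 genes of the B and plasma cell list with the smallest adjusted p in each library, on a log scale. KAP1-deleted liver 2 (open squares) is the highest library for the 6 genes, at 48.4 CPM for Ighm and 23.1 CPM for Igkc, and for Irf4, Iglc2, Pou2af1, Mzb1 and Blk, while a tumour is the highest for Prdm1, Blnk and Btla.

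Among 31 tested genes of the list of other T cell genes, 3 rose and 2 fell in tumour over control liver by edgeR. Among all genes 6.15% rose and 7.76% fell there. In tumour over KAP1-deleted liver 2 rose and 2 fell, against 4.8% and 6.64% of all genes. In KAP1-deleted over control liver 0 rose and 1 fell, against 0.239% and 0.0968%. There the unadjusted p was under 0.05 for 2 higher genes, against 3.27% of all genes. DESeq2 called 2 genes higher there and limma-voom 0, against 0.866% and 0.148% of all genes. The median log2 fold changes in these 3 comparisons were 0.75, 0.76 and 0.08. Some of these genes had far higher counts than the CD3 genes and changed by other amounts. Cd28, the co-stimulatory receptor of T cells, had 1225 and 986 counts in tumours, 104 and 209 in KAP1-deleted livers, against 29 and 30 in control livers. The tumours lay above the KAP1-deleted livers and these above the control livers. Cd28 rose by a log2 fold change of 4.76 ± 0.39 in tumour over control liver (edgeR adjusted p = 0.000676) and 2.39 ± 0.33 over KAP1-deleted liver (edgeR adjusted p = 0.00587), and its log2 fold change was 2.37 ± 0.37 in KAP1-deleted over control liver (edgeR adjusted p = 0.0572). This last change was called by DESeq2 (adjusted p = 3.54e-06) and not by limma-voom. EdgeR called it with every gene of at least 1 count kept (adjusted p = 2.34e-12) and with library totals (adjusted p = 0.0377). The first of these settings also gave Ighm, Igkc and Jchain edgeR adjusted p of 8.07e-27, 1.43e-20 and 8.32e-25 in this comparison. Those genes were high in only 1 of the 2 KAP1-deleted livers and did not pass the main test. Small adjusted p in that setting are therefore not read as stronger evidence.

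Zap70, the kinase that binds the activated T cell receptor chains, went the opposite way. It had 25 and 27 counts in tumours, 36 and 88 in KAP1-deleted livers, against 419 and 560 in control livers, with no overlap between the 3 groups in CPM. It fell in tumour over control liver (log2 fold change -4.66 ± 0.44, edgeR adjusted p = 0.0011) and in KAP1-deleted over control liver (log2 fold change -3.00 ± 0.40, edgeR adjusted p = 0.0301). In tumour over KAP1-deleted liver it fell by 1.66 ± 0.43 on the log2 scale (edgeR adjusted p = 0.0453). The KAP1-deleted call was lost without tumour 1, tumour 2, control liver 1 or control liver 2. EdgeR also lost it with only the 2 groups fitted (adjusted p = 0.0761) and with only genes of a mean CPM of at least 1 (adjusted p = 0.0582). The call between tumour and KAP1-deleted liver was lost without any 1 library other than KAP1-deleted liver 1. With no replicate left out, limma-voom lost it too (adjusted p = 0.084). EdgeR lost it with DESeq2 size factors (adjusted p = 0.0517), upper-quartile scaling (adjusted p = 0.0616), the mean CPM filter (adjusted p = 0.0595) and only the 2 groups (adjusted p = 0.0584).

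Tox, a nuclear factor of T cell development and exhaustion, rose in tumour over control liver (log2 fold change 1.21 ± 0.21, edgeR adjusted p = 0.0108), a call lost without tumour 1. Its log2 fold change was 1.08 ± 0.21 in KAP1-deleted over control liver (edgeR adjusted p = 0.134), a change that DESeq2 called (adjusted p = 0.00488). In tumour over KAP1-deleted liver Tox was not called. There its log2 fold change ran from -0.08 to 0.67 over 16 alternative fits. Tcf7, the transcription factor TCF1, rose over control liver (log2 fold change 1.87 ± 0.34, edgeR adjusted p = 0.0116) and over KAP1-deleted liver (log2 fold change 1.43 ± 0.33, edgeR adjusted p = 0.0308). Without tumour 1 those adjusted p became 0.061 and 0.136, and the second call was also lost without any other of the 4 libraries compared.

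**Figure D5:**
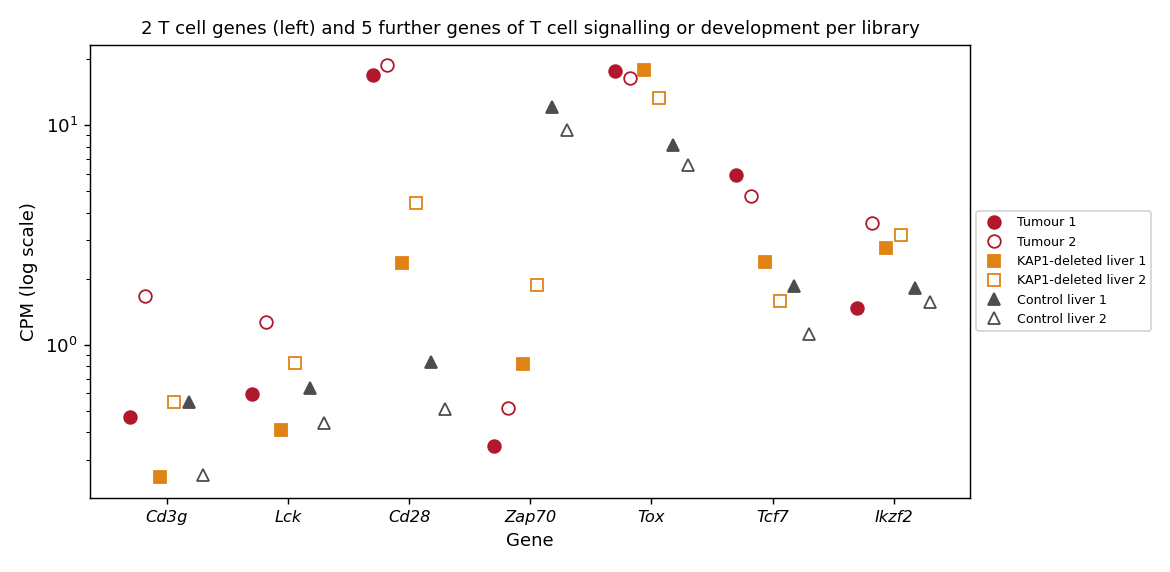
CPM of 2 T cell genes (Cd3g and Lck) and of Cd28, Zap70, Tox, Tcf7 and Ikzf2 in each library, on a log scale. Cd28 and Zap70 separate the 3 groups in opposite directions, at 16.9 and 18.8 CPM in tumours against 0.837 and 0.509 CPM in control livers for Cd28, while the groups of Cd3g and Lck overlap.

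The list of other NK and cytotoxic genes held 13 tested genes. Of these, edgeR called 0 in tumour over control liver, tumour over KAP1-deleted liver and KAP1-deleted over control liver. Among all genes it called 6.15%, 4.8% and 0.239% higher. At an unadjusted p under 0.05, 2, 4 and 0 were higher in these 3 comparisons, against 12.9%, 11.9% and 3.27% of all genes. DESeq2 called 1, 0 and 0 of them higher, against 8.3%, 7.14% and 0.866% of all genes, and limma-voom 0. Gzmk, granzyme K, had 12 and 72 counts in tumours, 2 and 9 in KAP1-deleted livers, against 2 and 4 in control livers, with a log2 fold change of 3.51 ± 1.17 over control liver (edgeR adjusted p = 0.0926). Ctsw, a cathepsin of NK and cytotoxic T cells, had 0.828 and 0.838 CPM in tumours, 0.318 and 0.381 CPM in KAP1-deleted livers, against 0.462 and 0.323 CPM in control livers. Both tumours lay above the livers for Ctsw, and tumour 2 was far above tumour 1 for Gzmk.

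Of 20 tested genes in the list of other B and plasma cell genes, 2 rose in tumour over KAP1-deleted liver, which were Prdm1 (log2 fold change 1.28 ± 0.30, edgeR adjusted p = 0.0324) and Blnk (log2 fold change 1.50 ± 0.37, edgeR adjusted p = 0.04). Among all genes, 4.8% rose in that comparison. Most of the 20 went the other way there. Only 6 had a log2 fold change above 0, and the median was -0.73, against -0.03 over all genes. The groups did not overlap for 3 genes higher in tumour and 8 lower, against 28.7% and 34.8% of all genes. At an edgeR unadjusted p under 0.05, 3 were higher and 3 lower, against 11.9% and 17.2% of all genes. Prdm1 encodes a transcription factor of plasma cells that other cells also use, and Blnk an adaptor of B cell receptor signalling. Prdm1 lost the call without any 1 of the 4 libraries compared, and Blnk without tumour 2, KAP1-deleted liver 1 or KAP1-deleted liver 2. No gene of that list passed in the other 2 comparisons by edgeR, with 3 and 2 higher at an unadjusted p under 0.05 in KAP1-deleted over control liver and tumour over control liver, and DESeq2 called 1 higher in each and limma-voom 0. Among all genes, 3.27% and 12.9% were higher at that unadjusted p, and DESeq2 called 0.866% and 8.3% higher.

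Of 21 tested genes that attract lymphocytes or hold them, 3 fell in tumour over control liver and over KAP1-deleted liver. By edgeR 0 rose, while the unadjusted p was under 0.05 for 3 and 4 higher genes in these 2 comparisons. With DESeq2 there were 3 higher in each, and with limma-voom 0. Among all genes, 7.76% and 6.64% fell by edgeR in these comparisons, and 12.9% and 11.9% were higher at an unadjusted p under 0.05. DESeq2 called 8.3% and 7.14% of all genes higher. In KAP1-deleted over control liver edgeR and DESeq2 called 0, with 1 lower at an unadjusted p under 0.05, against 2.17% of all genes. Cxcl12, the ligand of the receptor CXCR4, had 26.7 and 31.4 CPM in tumours, 121.9 and 114.2 CPM in KAP1-deleted livers, against 158.0 and 123.4 CPM in control livers. Cxcl13, the attractant of B cells, had 6 and 10 counts in tumours, 43 and 80 in KAP1-deleted livers, against 29 and 40 in control livers. Cxcl11, a ligand of CXCR3, had 0.746 and 0.647 CPM in tumours, 2.09 and 1.78 CPM in KAP1-deleted livers, against 1.91 and 1.88 CPM in control livers. Tumours lay below the livers for each. The log2 fold changes over control liver were -2.28 ± 0.20, -2.49 ± 0.53 and -1.44 ± 0.29 for Cxcl12, Cxcl13 and Cxcl11, with edgeR adjusted p of 0.00093, 0.0208 and 0.0172. Without tumour 1 the adjusted p of Cxcl13 was 0.109 and that of Cxcl11 0.0587, and without tumour 2 that of Cxcl11 was 0.0679. Over KAP1-deleted liver the log2 fold changes were -2.02 ± 0.20, -3.32 ± 0.52 and -1.47 ± 0.29 (edgeR adjusted p of 0.0019, 0.00882 and 0.0187). There the call of Cxcl13 was lost without tumour 1 (adjusted p = 0.0557) and that of Cxcl11 without any 1 of the 4 libraries compared.

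Of 16 tested antigen presentation genes, 2 rose in tumour over KAP1-deleted liver, against 4.8% of all genes, and 0 passed by edgeR in the other 2 comparisons. In tumour over control liver the unadjusted p was under 0.05 for 5 higher and 3 lower genes, against 12.9% and 17% of all genes. With DESeq2 there were 4 higher and 2 lower, against 8.3% and 9.84% of all genes, and with limma-voom 0. In KAP1-deleted over control liver these counts were 0. Ciita, the transactivator of MHC class II, had 4.21 and 8.55 CPM in tumours, 2.09 and 1.86 CPM in KAP1-deleted livers, against 2.19 and 3.02 CPM in control livers. Its log2 fold change was 1.69 ± 0.36 over KAP1-deleted liver (edgeR adjusted p = 0.0258), and the call was lost without tumour 2 or either KAP1-deleted liver. H2-Ab1, an MHC class II chain, had a log2 fold change of 1.29 ± 0.34 (edgeR adjusted p = 0.0478), lost without any 1 of the 4 libraries compared.

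Markers of other cell types moved with the tumours as well. Of 15 Kupffer cell and macrophage genes, 7 fell in tumour over control liver and 6 over KAP1-deleted liver, and their summed CPM was 370.5 and 519.0 in tumours, 801.5 and 811.4 in KAP1-deleted livers, against 780.4 and 755.7 in control livers. Of 10 hepatocyte genes, 5 and 4 fell in these comparisons. Among all genes, 7.76% and 6.64% fell. In some fits with 1 library left out, which leave 1 library in a group, fewer Kupffer cell and hepatocyte genes were called. Without tumour 1, fewer of all genes were called lower in these comparisons too, so that loss is not particular to these lists. None of the Kupffer cell and hepatocyte genes was at 0 in all 6 libraries. The part of these changes in the levels of the lymphocyte genes was not tested.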

How the data were processed

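Tissue RNA was extracted with a miRNeasy kit (the extraction text names cell lines, while the samples are labelled as tissue) and total RNA libraries were stranded, per the labels' protocols. The deposited counts are raw reads per Ensembl gene, obtained with TopHat and HTSeq 0.6.1 on mm9, per the submitters' processing notes. Strand use in counting is unknown, so overlapping genes are uncertain. Entries naming no gene (20.9% to 36.7% of counted reads) were left out. All libraries carry 1 batch label. P-values rest on the spread between libraries within groups, pooled over the groups and moderated across genes. The main fit does not use the pairing of tumour and liver by mouse.

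The test was edgeR 4.0.16 (R 4.3.3) on 17558 genes: filterByExpr by group (minimum count 10, minimum total 15), TMM, 1 mean per group over all 6 libraries and a robust quasi-likelihood fit with 3 residual degrees of freedom. It was two-sided, with Benjamini-Hochberg adjustment at 0.05, and each SE is the log2 fold change divided by the square root of F. CPM were computed with the TMM factors. A fit with the mouse as a block leaves 2 residual degrees of freedom. The pairing comes from the mouse codes in the labels, and same-mouse deviations from the group means had r = 0.165 across genes (log2 CPM, prior 0.5). DESeq2 1.42.0 and limma 3.58.1 were alternatives. Scripts were tested on simulated data. Positions and 31-base words come from GENCODE for GRCm38, promoters from RefSeq. The members and the other lists were chosen with earlier results of these data known. All 30 members are named, and the other lists allow at most 4 genes per comparison, by smallest adjusted p; genes outside this rule were chosen after their values were seen, and a gene of the other T cell list is not reported here. Intervals and the 3-count floor describe counting error alone.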

Additional observations from a re-analysis of the deposited data

How the results depend on the processing

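With every gene of at least 1 count kept, edgeR called 4 of the lymphocyte genes higher in KAP1-deleted over control liver, 8 higher and 4 lower in tumour over KAP1-deleted liver, and 10 higher in tumour over control liver, against 1.3%, 5.74%, 8.28% and 6.61% of 27238 genes. The 4 in KAP1-deleted over control liver were Ms4a1, Ighm, Igkc and Jchain, which were high in KAP1-deleted liver 2 alone. Keeping genes with a mean CPM of at least 1 left only 7 of the lymphocyte genes to test. Of these, 0 were called in tumour over control liver, against 6.4% higher and 8.69% lower of all genes kept. Cd8a and Gzmb, which the main test called there, were removed by this filter, so the 0 does not test their calls. Over these 7 genes the median log2 fold change was 2.63 in KAP1-deleted over control liver and -1.77 in tumour over KAP1-deleted liver. In tumour over control liver it was 0.11. In tumour over KAP1-deleted liver, DESeq2 called 2 higher and 3 lower, against 7.14% and 9.03% of all genes. A fit of only the 2 groups called 1 higher, against 7.15% of all genes. Limma-voom called 0 in tumour over control liver, against 6.08% higher and 7.76% lower of all genes.

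The replicate block, with the mouse as a term, called 3 genes higher in tumour over KAP1-deleted liver, against 4.96% of all genes, and changed no other call of the 30. Library totals without TMM, an alternative chosen after seeing the data, shifted the median of all genes by 0.54 and 0.47 (log2) in the 2 tumour comparisons and called 11 genes higher over KAP1-deleted liver and 10 over control liver, against 24.6% and 22.6% of all genes. The mean sum of cytotoxic, NK and homing genes was then 13.2 CPM in tumour and 4.74 CPM in KAP1-deleted liver. With each library left out in turn, a fit that leaves 1 library in a group, the number of the 30 genes called changed in all 3 comparisons. No result changed direction between called values, and the causes were not tested. Counts under 10 in many libraries limit what these data can show for single lymphocyte genes.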
